A study of Mus musculus with 6 samples.

Results

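The Wnt ligands, their receptors and their secreted modulators were examined by RNA sequencing of mouse cells. The labels call these cells primary vascular smooth muscle cells (VSMC), a type that is contractile in the vessel wall. The groups were Nono knockout (KO, n = 3 libraries) and wild type (WT, n = 3 libraries), all kept in DMEM with 20% fetal bovine serum and antibiotics without further treatment. The Nono protein binds RNA and DNA and sits in nuclear paraspeckles, and the series is about vascular calcification. The labels give neither the strain, sex and age of the mice nor the way the gene was knocked out. They do not tell whether replicates came from separate cultures or mice, and the spread between libraries that the p-values rest on may therefore be technical. Members were chosen by gene symbol alone: all Wnt, Fzd, Sfrp, Dkk and Rspo genes plus Lrp5, Lrp6, Ror1, Ror2, Ryk, Frzb, Wif1, Axin2, Lef1, Tcf7, Nkd1 and Notum. The rule found 53 of the 56393 genes in the table: 19 Wnt ligands, 10 Frizzled receptors, 5 co-receptors, 6 secreted proteins that bind Wnts, 4 Dickkopf proteins, 4 R-spondins, Notum, and 4 target genes or nuclear effectors.

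Wnts are lipid-modified secreted proteins that bind Frizzled receptors on the cell surface. With the co-receptors Lrp5 or Lrp6 they stabilise beta-catenin, which enters the nucleus and activates genes through factors of the TCF/LEF family, whereas Wnt5a-type ligands act mainly through Ror1, Ror2 and Ryk on cell polarity and movement. Secreted frizzled-related proteins bind Wnts outside the cell, Dickkopf proteins block Lrp5 and Lrp6, R-spondins raise the level of Frizzled receptors on the membrane, and Notum removes the lipid from Wnts. In vessel walls and bone, Wnt signals are known for their part in smooth muscle growth and in osteogenic differentiation.

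Library totals ranged from 57295800 to 61670083 counts in KO and from 56529170 to 60864603 counts in WT. Nono itself, the check of the knockout, stood at 55.97, 54.8 and 51.1 CPM in KO libraries, against 523, 502 and 519 CPM in WT libraries (CPM, counts per 1000000, scaled with TMM factors). Its level was 9.54-fold lower in KO (edgeR adjusted p = 1.63e-09). Of 10 smooth muscle markers 6 were higher and 2 lower in KO, and their summed level was 577 to 817 CPM in KO libraries and 411 to 612 CPM in WT libraries. Cald1, which made up most of that sum, averaged 479.6 ± 131 CPM in KO and 452 ± 100.3 CPM in WT and was not called. Acta2 averaged 161 ± 2.4 CPM in KO and 16.4 ± 1.27 CPM in WT (SD, n = 3 each here and for other means), and Tagln 15.01 ± 1.67 CPM in KO and 0.859 ± 0.337 CPM in WT. These were higher in KO, as were Cnn1, Actg2, Lmod1 and Smtn. Des averaged 0.848 ± 0.486 CPM in KO and 4.29 ± 1.62 CPM in WT and was lower, Myh11 averaged 0.219 ± 0.218 CPM in KO and 0.467 ± 0.264 CPM in WT and was not called, and Myocd, lower in KO, had 0 counts there and averaged 0.428 CPM in WT. All 12 listed fibroblast markers were tested and 11 were higher in KO, with a sum of 17116 to 18475 CPM in KO libraries and 1405 to 1606 CPM in WT libraries, and Lum and Thy1 at 0 in WT. Of 9 mesothelial and epithelial markers 4 were tested, 2 higher and 2 lower, with Epcam and Krt18 at 0 in every library. Their sums were 9.87 to 13.5 CPM in KO and 77.1 to 84.9 CPM in WT. Krt19 (means 8.39 CPM in KO, 59.3 CPM in WT) and Msln (0.220 CPM in KO, 20.1 CPM in WT) were lower in KO. Wt1 (2.03 CPM in KO, 0.0545 CPM in WT) and Cdh1 (0.927 CPM in KO, 0.152 CPM in WT) were higher. For 10 endothelial markers, 5 tested, 1 higher and 4 lower, sums were 2.69 to 3.26 CPM in KO and 9.605 to 11.2 CPM in WT, with Tie1 at 0 throughout. Of 10 macrophage and leukocyte markers, 6 tested, 3 higher and 2 lower, sums were 74.9 to 90.1 CPM in KO and 75.1 to 85.9 CPM in WT, with Ptprc, Adgre1 and Itgam at 0 throughout. These sums hide opposite changes: Cd14 averaged 74.5 ± 7.15 CPM in KO and 12.4 ± 0.643 CPM in WT, and Csf1r and Cd68 were also higher in KO, whereas Cd74 averaged 2.39 ± 0.714 CPM in KO and 56.9 ± 6.61 CPM in WT and Lyz2 0.213 ± 0.124 CPM in KO and 8.54 ± 0.522 CPM in WT, both lower in KO. The 4 Y-linked genes, all higher in KO, summed to 149.9 to 163 CPM in KO libraries and 0 to 0.0795 CPM in WT libraries. The fibroblast, mesothelial and epithelial, endothelial and Y-linked sums thus separated the genotypes and accompany every result on the Wnt genes, as do the called smooth muscle and macrophage markers, although those sums overlapped. The part of these marker differences in the Wnt results was not tested. Since KO libraries hold Y-linked transcripts and WT libraries next to none, genotype cannot be told apart from the sex or origin of the cells in any comparison of KO with WT. In bulk RNA, fewer cells of a type and less RNA per cell cannot be told apart.

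Most Wnt genes that were expressed differed between KO and WT. Of the 53 members, 36 passed the filter on low counts and were tested, and 22 were higher and 10 lower in KO at an adjusted p of 0.05 (edgeR quasi-likelihood test with Benjamini-Hochberg adjustment over all 18732 tested genes). The background was high: of all tested genes 35.1% were higher and 34.2% lower, or 69.3% in all. Of the members, 28 passed with at least a 2-fold difference, where 41.4% of all tested genes did, and the 3 values of each genotype did not overlap in 33 tested members, where this held for 75.5% of all tested genes. The median log2 fold change was 1.35 over the 36 members, with genes at 0 in a group set at their bound or not, and 0.0313 over all tested genes. A member that passed the filter only through the group where it was high had to differ, so these shares describe the tested members only. Among the tested members 7 had 0 counts in all WT libraries (Sfrp1, Wnt5a, Ror2, Notum, Nkd1, Lef1 and Rspo2) and 1 had 0 counts in all KO libraries (Wnt8b). Of the 17 members not tested, 8 had no count in any library (Wnt3, Wnt3a, Wnt7a, Wnt9b, Fzd10, Dkk1, Dkk4 and Rspo4), and the other 9 (Wnt1, Wnt2, Wnt7b, Wnt8a, Wnt11, Rspo1, Sfrp5, Wif1 and Axin2) did not exceed 0.333 CPM in any library.

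The main Wnt ligand differed between the genotypes. Wnt5a, the prototype of ligands that signal without beta-catenin, stood at 58.96, 71.03 and 72.98 CPM in KO libraries, against 0 counts in all WT libraries. With the WT group set at 3 counts in total, as for every gene at 0 in a group, Wnt5a was at least 4190-fold higher (edgeR adjusted p = 6.28e-08). Wnt5a was thus counted in every KO library and in no WT library, and Gm2670, which overlaps Wnt5a on the opposite strand, was counted 72, 109 and 119 times in KO and 0 times in WT. Wnt4, a ligand of kidney and reproductive tract development, went the other way, with 3.26, 2.55 and 4.55 CPM in KO libraries, against 25.7, 31.7 and 27.6 CPM in WT libraries (log2 fold change -3.04 ± 0.21 SE, edgeR adjusted p = 3.82e-06). Its highest KO value was far below its lowest WT value, an 8.202-fold difference of the fitted levels.

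**Figure D1:**
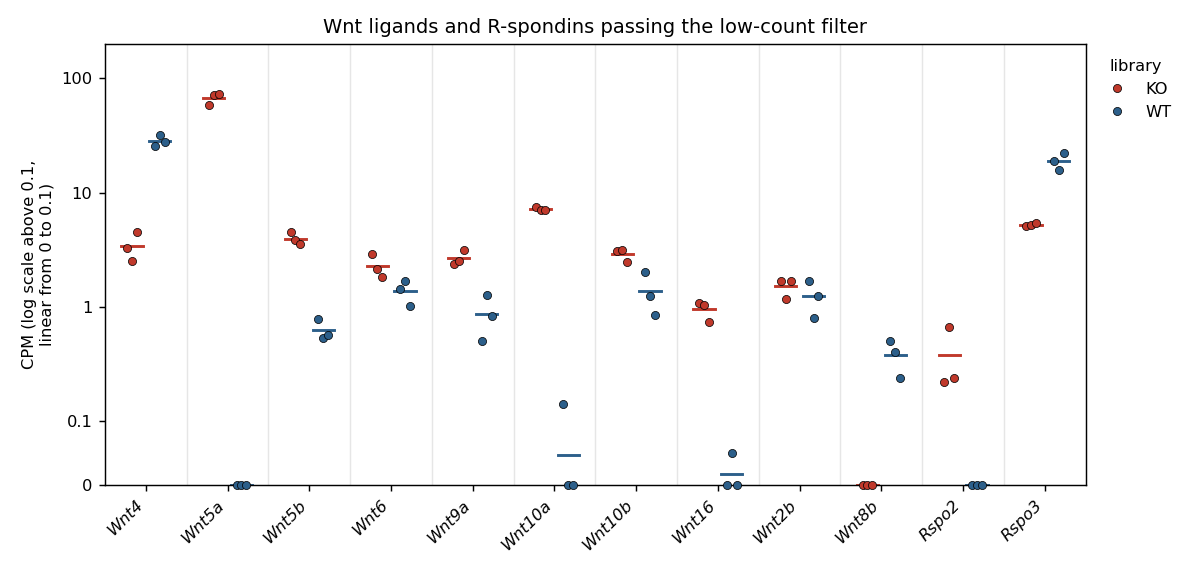
CPM of the Wnt ligands and R-spondins that passed the low-count filter, in each KO (red, left) and WT (blue, right) library; bars mark the mean of 3 libraries, and the axis is logarithmic above 0.1 CPM and linear below. Wnt5a, Wnt10a and Wnt16 were at or near 0 in WT, whereas Wnt4 and Rspo3 were lower in KO.

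Other ligands changed at lower levels. Wnt10a, which acts through beta-catenin in skin and teeth, had 7.502, 7.06 and 7.13 CPM in KO libraries, against 0.143, 0 and 0 CPM in WT libraries. The WT counts all came from replicate 1, with a fitted log2 fold change of 7.17 (edgeR adjusted p = 9.2e-05), and without that library, which held all 9 WT counts, Wnt10a was at least 296-fold higher. Wnt5b, the close relative of Wnt5a, had 4.52, 3.82 and 3.53 CPM in KO libraries, against 0.792, 0.534 and 0.572 CPM in WT libraries (log2 fold change 2.64 ± 0.26 SE, edgeR adjusted p = 2.78e-05). Its gene overlaps Fbxl14 on the opposite strand, which was counted 1604, 1515 and 1647 times in KO and 2474, 2434 and 2390 times in WT, so reads of this pair may not be separable. Wnt9a had 2.37, 2.51 and 3.16 CPM in KO libraries, against 0.507, 1.27 and 0.827 CPM in WT libraries (log2 fold change 1.63 ± 0.36 SE, edgeR adjusted p = 0.00358). The groups did not overlap for either ligand. Wnt10b, a promoter of bone formation, had 3.09, 3.18 and 2.46 CPM in KO libraries, against 2.03, 1.25 and 0.843 CPM in WT libraries (log2 fold change 1.08 ± 0.34 SE, edgeR adjusted p = 0.0201). It no longer passed when WT replicate 2, KO replicate 1 or KO replicate 2 was left out (edgeR adjusted p = 0.058, 0.0568 and 0.0586). Wnt16, known for its part in cortical bone, had 165 counts in KO and 3 in WT, all in replicate 2 (edgeR adjusted p = 0.000527). Its ratio was 59.3, with an exact 95% counting interval of 19.9 to 290.3 that takes counts as independent. Without WT replicate 2, Wnt16 had no WT count and was at least 40.2-fold higher. Its fitted log2 fold change was then 8.84, against 5.71 with all libraries (edgeR adjusted p = 0.00037 without that library). Wnt8b had 0 counts in KO and 0.507, 0.4002 and 0.239 CPM in the WT libraries, at least 22.0-fold lower in KO (edgeR adjusted p = 0.00166). Neither Wnt6, with 2.88, 2.15 and 1.83 CPM in KO libraries against 1.43, 1.68 and 1.02 CPM in WT libraries (edgeR adjusted p = 0.0546), nor Wnt2b, with 1.52 ± 0.2897 CPM in KO and 1.25 ± 0.4398 CPM in WT (SD, n = 3 each; edgeR adjusted p = 0.486), passed the test. Wnt6 did pass in 5 alternatives, at adjusted p from 0.0436 to 0.0473.

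Levels of different genes can be set side by side only per length, for which the authors' deposited FPKM (fragments per kilobase of transcript per 1000000) were used, as levels and without a test. The 19 Wnt ligands summed to 17.5 to 22.02 FPKM in KO libraries and 7.798 to 9.45 FPKM in WT libraries. In KO, Wnt5a made up 58.4 ± 8.19% of that sum, Wnt10a 12.2 ± 1.99% and Wnt4 3.41 ± 0.986% (SD, n = 3). In WT, Wnt4 made up 72.6 ± 5.03%, Wnt6 7.93 ± 1.31% and Wnt5a none (SD, n = 3). The deposited FPKM of Wnt5a in KO replicate 1 (8.54) was lower relative to the other KO libraries (13.97 and 13.5) than its counts were, so its share varies more than its CPM.

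**Figure D2:**
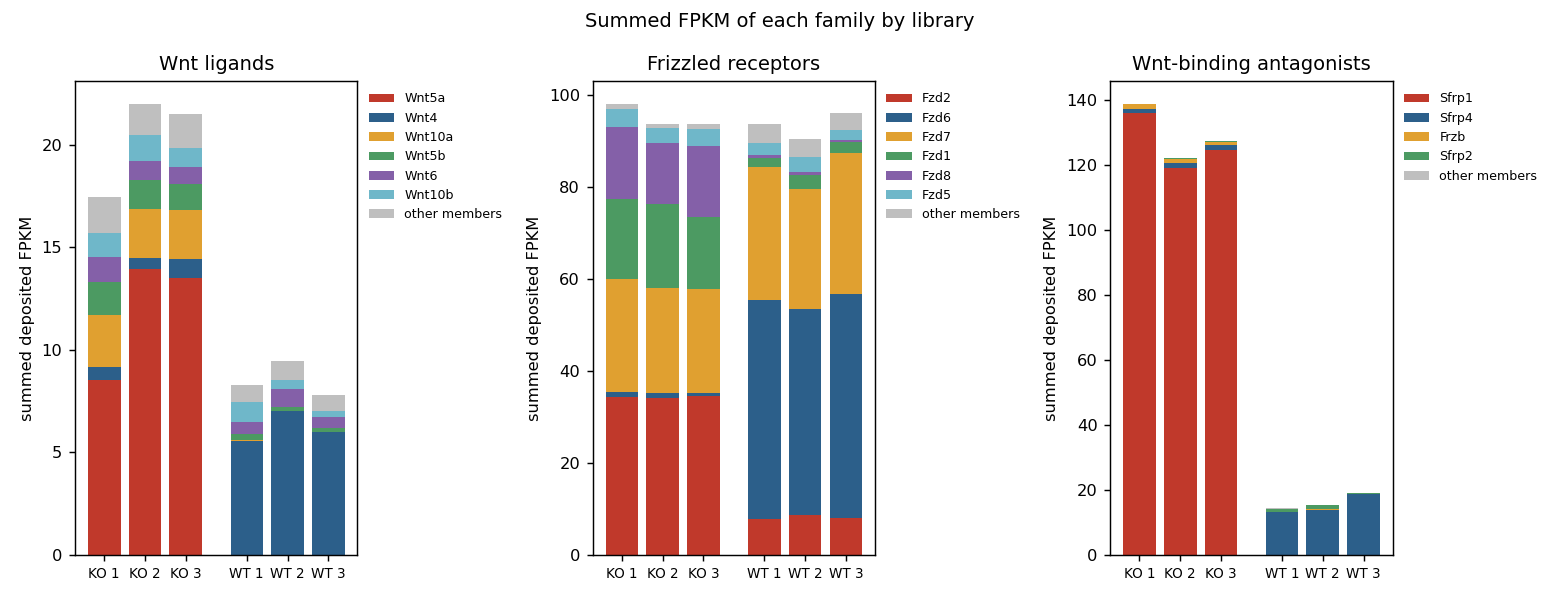
Summed deposited FPKM of Wnt ligands, Frizzled receptors and Wnt-binding antagonists in each library, KO on the left of each panel, stacked by member. Frizzled FPKM sums overlapped between the genotypes (93.7 to 98.1 in KO, 90.5 to 96.1 in WT), unlike their CPM sums. Fzd6 made up far less of the Frizzled sum in KO, and Sfrp1 filled most of the antagonist sum in KO.

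Of the R-spondins, which bind Lgr4, Lgr5 and Lgr6 and keep the ligases Znrf3 and Rnf43 from removing Frizzleds, Rspo3 was the main one. It had 5.11, 5.201 and 5.43 CPM in KO libraries, against 18.8, 15.7 and 22.2 CPM in WT libraries (log2 fold change -1.85 ± 0.14 SE, edgeR adjusted p = 6.41e-06). Rspo2 had 13, 37 and 14 counts in KO and none in WT, at least 23.0-fold higher (edgeR adjusted p = 0.00301). Most of its KO counts came from replicate 2, without which the fitted log2 fold change was 6.82 (edgeR adjusted p = 0.0138). Both genotypes therefore had Rspo3 as their most abundant R-spondin, making up 93.9 ± 4.12% of summed R-spondin FPKM in KO and 98.97 ± 0.889% in WT (SD, n = 3 each).

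Frizzled receptors were present in different proportions, whereas the comparison of their totals depended on the measure. Their summed CPM, scaled with TMM factors but not per length, was 494.9 to 528.8 in KO libraries and 415.5 to 452.5 in WT libraries. Those ranges did not overlap. Their summed FPKM was 93.7 to 98.1 in KO libraries and 90.5 to 96.1 in WT libraries, ranges that overlap. In KO, Fzd2 made up 36.1 ± 0.945% of the sum, Fzd7 24.4 ± 0.457%, Fzd1 17.9 ± 1.42%, Fzd8 15.6 ± 1.28% and Fzd6 1.01 ± 0.213% (SD, n = 3). In WT, Fzd6 made up 50.4 ± 0.695%, Fzd7 30.5 ± 1.51%, Fzd2 8.72 ± 0.667%, Fzd1 2.74 ± 0.641% and Fzd8 0.5704 ± 0.0508% (SD, n = 3). The most abundant Frizzled was thus Fzd2 in KO and Fzd6 in WT, with Fzd7 the next in both.

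Of the 9 tested Frizzled genes, 4 were higher and 3 lower in KO, a share of 77.8%, where 69.3% of all tested genes passed. Fzd6, a receptor of the planar cell polarity branch, had 4.96, 5.001 and 3.31 CPM in KO libraries, against 199, 178 and 202 CPM in WT libraries. The fitted level was 43.7-fold lower in KO libraries than in WT (log2 fold change -5.45 ± 0.17 SE, edgeR adjusted p = 1.33e-07). The overlapping opposite-strand gene Gm26704 had 13, 0 and 8 counts in KO and 123, 178 and 84 in WT. Fzd4, the norrin receptor of blood vessels, had 5.34, 5.13 and 5.12 CPM in KO libraries, against 20.5, 19.4 and 19.1 CPM in WT libraries (log2 fold change -1.92 ± 0.10 SE, edgeR adjusted p = 5.13e-07). Fzd3, a receptor known for axon guidance, had 3.89, 5.33 and 4.89 CPM in KO libraries, against 16.2, 19.2 and 17.3 CPM in WT libraries (log2 fold change -1.90 ± 0.15 SE, edgeR adjusted p = 6.41e-06). For all of these the KO values lay below every WT value.

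Fzd8 had the largest fitted fold increase among the Frizzled genes. It had 113, 93.9 and 110.2 CPM in KO libraries, against 3.74, 3.47 and 3.24 CPM in WT libraries (log2 fold change 4.92 ± 0.10 SE, edgeR adjusted p = 5.84e-09), a 30.3-fold difference. Fzd1 and Fzd2 are close relatives of Fzd7. Fzd1 had 87.5, 90.7 and 77.8 CPM in KO libraries, against 9.67, 14.2 and 11.3 CPM in WT libraries (log2 fold change 2.87 ± 0.14 SE, edgeR adjusted p = 5.76e-07). Fzd2 had 151, 149 and 151 CPM in KO libraries, against 31.5, 33.9 and 32.5 CPM in WT libraries (log2 fold change 2.20 ± 0.05 SE, edgeR adjusted p = 9.6e-09). Each of these 3 receptors was higher in every KO library than in any WT library. Fzd5 had 29.4, 23.6 and 26.3 CPM in KO libraries, against 17.9, 19.3 and 14.6 CPM in WT libraries (log2 fold change 0.62 ± 0.13 SE, edgeR adjusted p = 0.0029), a difference of 1.53-fold that did not pass from the deposited FPKM (limma adjusted p = 0.0529). Fzd7 had 133, 123 and 122 CPM in KO libraries, against 145, 127 and 152 CPM in WT libraries, with overlapping groups (log2 fold change -0.17 ± 0.07 SE, edgeR adjusted p = 0.0696). It was called lower with scaling by total counts (edgeR adjusted p = 0.0041), from the deposited FPKM (limma adjusted p = 0.0314) and without WT replicate 2 (edgeR adjusted p = 0.00734). Fzd9 stayed under 1 CPM in every library and gave no call (edgeR adjusted p = 0.224).

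**Figure D3:**
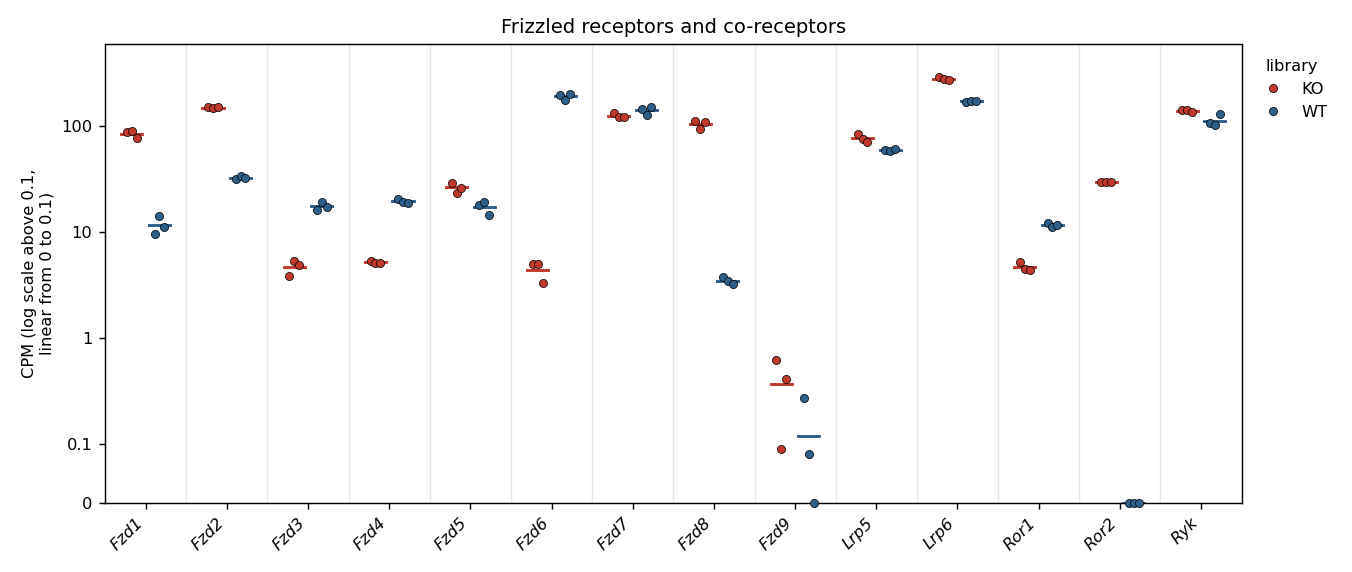
CPM of 9 Frizzled receptors and 5 co-receptors in each KO (red, left) and WT (blue, right) library; bars mark the mean of 3 libraries, and the axis is logarithmic above 0.1 CPM and linear below. Fzd6 was lower and Fzd1, Fzd2, Fzd8 and Ror2 were higher in every KO library, and Fzd7 overlapped between the groups.

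Among the co-receptors, the receptor tyrosine kinases Ror1 and Ror2 differed in opposite directions. Ror2, a receptor for Wnt5a, had 29.9, 30.1 and 29.6 CPM in KO libraries, against 0 counts in all WT libraries, at least 1852-fold higher (edgeR adjusted p = 5.53e-08). The 3 KO values lay within 1 CPM of each other. Ror1, which binds the same ligand, had 5.18, 4.46 and 4.39 CPM in KO libraries, against 12.2, 11.2 and 11.6 CPM in WT libraries (log2 fold change -1.31 ± 0.13 SE, edgeR adjusted p = 2.48e-05). Ryk, a kinase-like Wnt receptor, had 144, 143 and 136 CPM in KO libraries, against 107, 102 and 129.6 CPM in WT libraries (log2 fold change 0.32 ± 0.09 SE, edgeR adjusted p = 0.0113), a call lost with scaling by total counts (edgeR adjusted p = 0.0753). Lrp6 had 291, 283 and 272 CPM in KO libraries, against 171, 173 and 172 CPM in WT libraries (log2 fold change 0.71 ± 0.04 SE, edgeR adjusted p = 1.12e-06). Lrp5 had 83.8, 75.6 and 70.8 CPM in KO libraries, against 59.9, 58.3 and 61.3 CPM in WT libraries (log2 fold change 0.36 ± 0.07 SE, edgeR adjusted p = 0.002), but gave no call from the deposited FPKM (limma adjusted p = 0.212). Ryk, Lrp6 and Lrp5 thus differed by 1.25-, 1.64- and 1.28-fold, well under the differences of the Ror genes, and were expressed in both genotypes.

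Promoter sequences from RefSeq (build GRCm38.p6) were used for 36 of the 53 members. No window was used for the other 17, Fzd8 and Wnt8a among them. The member values below cover those 36 genes only, whereas the values for all windows cover the whole table. Shown are the 250 bases before the annotated start site, 5′ to 3′ on the gene's strand, of Ror2 and Ror1, which differed in opposite directions, and of the beta-catenin targets Axin2 and Nkd1. Capitals mark CG dinucleotides.
Ror2, chr13:53286125-53286374, minus strand: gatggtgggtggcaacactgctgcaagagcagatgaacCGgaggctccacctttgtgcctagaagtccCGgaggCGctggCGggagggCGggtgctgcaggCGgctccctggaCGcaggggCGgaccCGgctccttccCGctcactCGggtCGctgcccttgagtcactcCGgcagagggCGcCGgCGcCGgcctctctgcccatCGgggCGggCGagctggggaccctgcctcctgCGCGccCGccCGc
Ror1, chr4:100095541-100095790, plus strand: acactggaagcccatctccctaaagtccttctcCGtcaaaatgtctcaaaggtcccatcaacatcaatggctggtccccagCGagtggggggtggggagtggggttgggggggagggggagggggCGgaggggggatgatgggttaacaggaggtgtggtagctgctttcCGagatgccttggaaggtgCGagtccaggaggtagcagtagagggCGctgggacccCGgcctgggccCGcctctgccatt
Axin2, chr11:108920099-108920348, plus strand: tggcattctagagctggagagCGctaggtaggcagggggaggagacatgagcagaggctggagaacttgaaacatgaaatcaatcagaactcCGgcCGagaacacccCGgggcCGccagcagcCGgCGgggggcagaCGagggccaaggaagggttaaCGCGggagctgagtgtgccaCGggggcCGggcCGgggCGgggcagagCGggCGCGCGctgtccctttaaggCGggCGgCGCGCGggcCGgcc
Nkd1, chr8:88527383-88527632, plus strand: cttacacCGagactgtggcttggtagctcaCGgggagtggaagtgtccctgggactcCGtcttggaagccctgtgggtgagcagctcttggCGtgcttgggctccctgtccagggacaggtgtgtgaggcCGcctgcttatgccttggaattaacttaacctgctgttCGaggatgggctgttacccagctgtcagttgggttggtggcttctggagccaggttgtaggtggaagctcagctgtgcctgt
The Ror2 window holds 24 CG dinucleotides (observed over expected 0.718), the Ror1 window 8 (0.354), the Axin2 window 24 (0.86) and the Nkd1 window 6 (0.294). Over the 43 member windows used (some genes have several) the median ratio was 0.751 and the median GC content 66.4%. Over all 32851 windows of the table these were 0.374 and 52.4%, as a description only. The TCF/LEF core was searched as CTTTGAA and CTTTGAT on both strands, motifs that differ in their last base, so that no match counts for both. It was found in 3 of the member windows used, 1 each of Wnt5b, Wnt11 and Dkk1 (6.98%), and in 7.48% of all windows. None of the printed windows holds these letters, which says nothing about binding elsewhere.

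All 4 tested genes of secreted Wnt-binding proteins were called, 2 higher and 2 lower in KO, where 69.3% of all tested genes passed. Sfrp1 was the most abundant of them in KO and Sfrp4 in WT. Sfrp1, a frizzled-related protein that sequesters Wnts, had 713, 618 and 649.8 CPM in KO libraries, against 0 counts in all WT libraries, at least 40986-fold higher (edgeR adjusted p = 6e-09). Sfrp4, a relative with a role in bone turnover, differed the other way. It had 3.36, 4.27 and 3.24 CPM in KO libraries, against 43.6, 44.2 and 41.8 CPM in WT libraries (log2 fold change -3.58 ± 0.12 SE, edgeR adjusted p = 5.74e-08), with the KO values far below those of WT. Frzb, also called Sfrp3 and known from cartilage, had 5.2, 4.84 and 3.87 CPM in KO libraries, against 0.0634, 0.233 and 0.191 CPM in WT libraries (log2 fold change 4.82 ± 0.41 SE, edgeR adjusted p = 1.2e-05). Sfrp2 had 0.358, 0.655 and 0.271 CPM in KO libraries, against 2.14, 2.63 and 0.827 CPM in WT libraries (log2 fold change -2.12 ± 0.53 SE, edgeR adjusted p = 0.00671), where WT replicate 3 came closest to the KO values, and Gm26771 on the opposite strand had 0 counts in KO and 19, 21 and 35 counts in WT. In summed FPKM the 6 Wnt-binding genes reached 122 to 139 in KO libraries and 14.3 to 19.05 in WT libraries. Of that sum Sfrp1 made up 97.8 ± 0.284% and Sfrp4 1.09 ± 0.182% in KO, while in WT Sfrp4 made up 93.7 ± 3.42% and Sfrp2 5.78 ± 3.36% (SD, n = 3 each). Sfrp5 and Wif1 had 0 counts in KO and 4 and 15 counts over the WT group.

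Both counted Dickkopf genes were higher in KO, where 35.1% of all tested genes were. With 12 (Dkk2) and 44 (Dkk3) counts over the WT libraries, both passed the low-count filter through KO. The best-known inhibitor of Lrp5 and Lrp6, Dkk1, had no count in any library. Dkk3, a divergent member that does not share the Lrp-blocking action of Dkk1, had 178, 167 and 162 CPM in KO libraries, against 0.364, 0.133 and 0.207 CPM in WT libraries, a 709-fold difference of the fitted levels (log2 fold change 9.47 ± 0.22 SE, edgeR adjusted p = 2.22e-08). Dkk2, which can block or promote Wnt signals, had 2.66, 4.16 and 2.92 CPM in KO libraries, against 0.0634, 0 and 0.127 CPM in WT libraries (log2 fold change 5.61 ± 0.66 SE, edgeR adjusted p = 9.71e-05). Its fitted log2 fold change was 6.56 without WT replicate 3 (edgeR adjusted p = 0.000169), and 8 of the 12 WT counts came from that library. In both genes every KO value lay above every WT value.

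**Figure D4:**
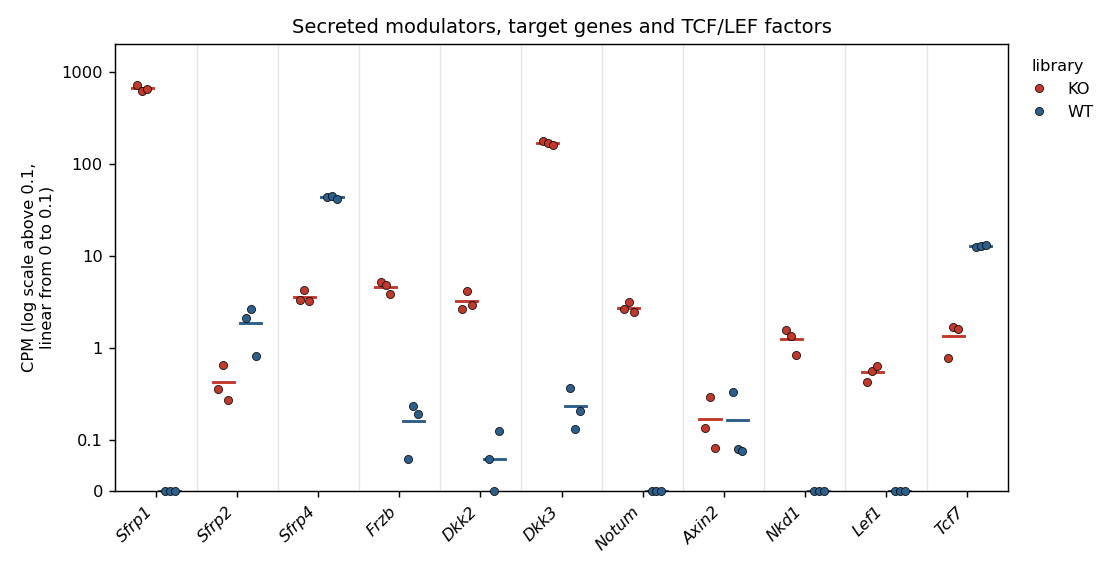
CPM of secreted modulators, target genes and TCF/LEF factors in each KO (red, left) and WT (blue, right) library; bars mark the mean of 3 libraries, and the axis is logarithmic above 0.1 CPM and linear below. Sfrp1, Notum, Nkd1 and Lef1 were at 0 in WT, Tcf7 and Sfrp4 were lower in KO, and Axin2 was low in both.

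Among the members, Axin2, Nkd1 and Notum were taken as targets of beta-catenin. Nkd1 and Notum were higher in KO, and Axin2 had too few counts for the test. Listed targets outside the members went both ways, with 5 of 8 tested genes higher and 2 lower. That is a share of 87.5%, where 69.3% of all tested genes passed. Znrf3 was lower in KO. Axin2, a negative regulator and the most widely used target, was counted 8, 16 and 5 times in KO libraries and 21, 5 and 5 times in WT libraries. That is 0.136, 0.291 and 0.0848 CPM in KO and 0.333, 0.0834 and 0.0795 CPM in WT, with overlapping groups, and a difference was not detectable at this depth. Nkd1, an antagonist of Dishevelled, had 1.55, 1.35 and 0.848 CPM in KO libraries, against 0 counts in all WT libraries, at least 77.2-fold higher (edgeR adjusted p = 0.000128). Notum, the Wnt deacylase, had 2.63, 3.15 and 2.49 CPM in KO libraries, against 0 counts in all WT libraries, at least 170.3-fold higher (edgeR adjusted p = 1.19e-05). The opposite-strand gene Notumos was counted 55, 29 and 83 times in KO and 0, 9 and 0 times in WT.

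Of the nuclear partners of beta-catenin in the family, Lef1 had 25, 31 and 38 counts in KO libraries and none in WT, or 0.426, 0.564 and 0.645 CPM in KO libraries, at least 33.8-fold higher (edgeR adjusted p = 0.000594). Gm43352, on the opposite strand of Lef1, had 4, 32 and 4 counts in KO and 0 in WT. Tcf7, which encodes TCF1, had 0.784, 1.67 and 1.63 CPM in KO libraries, against 12.6, 12.7 and 13.3 CPM in WT libraries (log2 fold change -3.24 ± 0.27 SE, edgeR adjusted p = 1.05e-05). The group means of Tcf7 were 1.36 ± 0.501 CPM in KO and 12.9 ± 0.3803 CPM in WT (SD, n = 3 each), and no KO value came near a WT value.

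Beyond the members, 80 other genes of the pathway were listed by role, of which 71 were tested and 37 were higher and 20 lower in KO, a share of 80.3% where 69.3% of all tested genes passed. Of these genes 35 rose and 22 fell when libraries were scaled by total counts, and 31 rose and 22 fell in a limma fit of the FPKM. Their median log2 fold change was 0.443, against 0.0313 over all tested genes. Both secretion genes were higher: Porcn, the acyltransferase that adds the lipid to Wnts, had 41.7, 36.7 and 34.5 CPM in KO libraries, against 3.88, 4.03 and 3.56 CPM in WT libraries (log2 fold change 3.30 ± 0.11 SE, edgeR adjusted p = 4.98e-08). Wls, the carrier that takes Wnts to the cell surface, had 408, 389 and 401 CPM in KO libraries, against 214, 201 and 223 CPM in WT libraries (log2 fold change 0.91 ± 0.05 SE, edgeR adjusted p = 6.68e-07). The KO values of both lay above all WT values.

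On the receptor side, 14 of 18 genes were tested, 9 higher and 3 lower, a share of 85.7%, where 69.3% of all tested genes passed. Ptk7, a pseudokinase of the polarity branch, averaged 167 ± 8.72 CPM in KO and 4.62 ± 0.586 CPM in WT. Reck, a membrane protein that takes part in Wnt7 signalling, averaged 37.3 ± 3.61 CPM in KO and 19.7 ± 1.42 CPM in WT. Both were higher in KO (edgeR adjusted p = 4.62e-09 and 4.83e-05). Znrf3, a ligase that removes Frizzleds and is itself a target, averaged 9.31 ± 1.12 CPM in KO and 52.6 ± 1.57 CPM in WT, and Apcdd1, a membrane-bound Wnt inhibitor, 1.79 ± 0.306 CPM in KO and 9.002 ± 0.464 CPM in WT. Znrf3 and Apcdd1 were lower in KO (edgeR adjusted p = 1.42e-07 and 5.28e-06).

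Of 21 cytoplasmic genes, all tested, 8 were higher and 7 lower, a share of 71.4%, near the 69.3% of all tested genes. The casein kinases differed in direction: Csnk1a1 averaged 646 ± 14.2 CPM in KO and 291 ± 7.5 CPM in WT and Csnk1d 262 ± 6.28 CPM in KO and 134 ± 4.27 CPM in WT, whereas Csnk1e averaged 127 ± 5.71 CPM in KO and 305 ± 17.99 CPM in WT. Dvl1, a Dishevelled gene, averaged 64.9 ± 1.75 CPM in KO and 152 ± 5.82 CPM in WT. All 4 passed the test (edgeR adjusted p = 5.05e-08, 2.59e-07, 2.65e-07 and 1.6e-07).

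Of 13 nuclear genes 12 were tested, 6 higher and 3 lower, a share of 75%, where 69.3% of all tested genes passed. Bcl9l, a beta-catenin co-activator, averaged 198 ± 5.29 CPM in KO and 57.3 ± 4.48 CPM in WT, and its relative Bcl9 70.6 ± 1.99 CPM in KO and 36.1 ± 3.94 CPM in WT. Pygo1, another co-activator, had 13.9, 12.9 and 10.6 CPM in KO libraries, against 0.0792, 0 and 0 CPM in WT libraries, where only WT replicate 1 held counts. Without that library Pygo1 was at least 509.7-fold higher, and its fitted log2 fold change was 12.53, against 8.75 with all libraries. The co-repressor Tle2 averaged 132 ± 5.52 CPM in KO and 16.8 ± 4.06 CPM in WT. The edgeR adjusted p of these genes was 7.44e-08, 1.32e-05, 3.46e-06 and 3.58e-06.

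Among 11 further target genes, 8 tested, 5 were higher and 2 lower, a share of 87.5%, where 69.3% of all tested genes passed. Ccn5, a secreted CCN protein, averaged 223 ± 11 CPM in KO and 3.79 ± 0.107 CPM in WT, and Twist1, a mesenchymal transcription factor, 61.6 ± 2.42 CPM in KO and 27.8 ± 1.44 CPM in WT. Myc averaged 23.8 ± 2.32 CPM in KO and 212 ± 19.02 CPM in WT, and Ccn4, another CCN protein, 49.99 ± 2.799 CPM in KO and 83.1 ± 4.69 CPM in WT. The first pair was higher and the second lower in KO (edgeR adjusted p = 5.29e-10, 1.2e-06, 3.17e-08 and 1.9e-05), and these genes respond to many signals besides Wnt. Nkd2, the relative of Nkd1, had 423 counts in KO and 2 in WT, all in replicate 1 (edgeR adjusted p = 2.38e-05). Its ratio was 228, with an exact 95% counting interval of 62.7 to 1888 that takes counts as independent. Leaving out WT replicate 1 gave a difference of at least 100.4-fold. Sp5, a transcription factor and target of beta-catenin, had 0.358, 0.582 and 0.594 CPM in KO libraries, against 0 counts in all WT libraries, at least 31.6-fold higher (edgeR adjusted p = 0.000771).

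In the polarity and calcium branch 14 of 15 genes were tested, 7 higher and 5 lower, a share of 85.7%, where 69.3% of all tested genes passed. Prickle1, a cytoplasmic polarity protein, had 29.1, 28.2 and 30.1 CPM in KO libraries, against 0.127, 0.167 and 0.175 CPM in WT libraries (log2 fold change 7.52 ± 0.15 SE, edgeR adjusted p = 4.33e-09). Rhoa, a small GTPase, averaged 282 ± 7.66 CPM in KO and 131 ± 6.36 CPM in WT. Lower in KO were Daam2, a formin that binds Dishevelled, with 30.3 ± 1.804 CPM in KO and 174 ± 18.7 CPM in WT, and the scaffold Scrib, with 87.9 ± 5.24 CPM in KO and 238 ± 3.16 CPM in WT. The last 3 genes had edgeR adjusted p-values of 2.41e-07, 6.42e-08 and 8.43e-08.

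**Figure D5:**
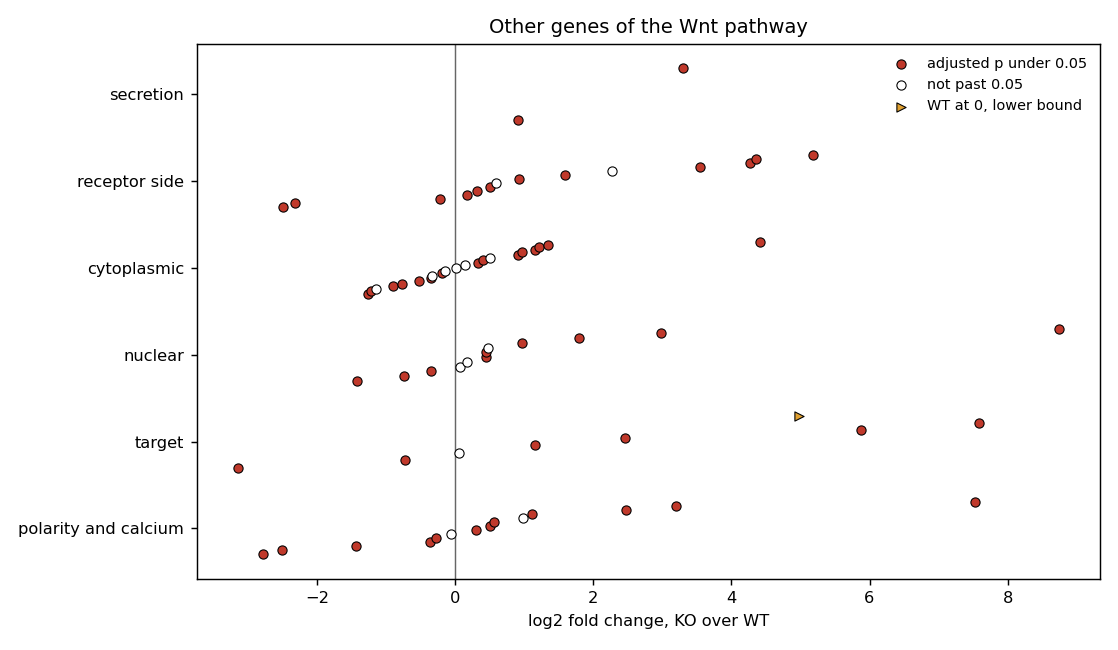
Log2 fold change of KO over WT for the 71 tested genes of the Wnt pathway outside the family, by role; filled circles passed an adjusted p of 0.05, open circles did not, and the triangle is the lower bound for a gene at 0 in WT (Sp5). Each role held genes on both sides of 0 except secretion, where both were higher.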

How the data were processed

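Bulk RNA sequencing of 6 libraries was used. Per the file headers, the authors deposited raw read counts and FPKM per gene in 1 table. The submitters' processing notes name CASAVA 1.8, HISAT2, SAMtools 1.3.1, edgeR and build GRCm39, and no source used here gives the read counter, strand setting or gene lengths. Where strand was not used, reads of overlapping genes on opposite strands cannot be told apart.

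Gene IDs were matched to symbols (55394 of 56393, 98.23%). KO was compared with WT by edgeR 4.0.16 (R 4.3.3) on the counts, with filterByExpr, TMM factors, the robust quasi-likelihood test and Benjamini-Hochberg adjustment over all 18732 tested genes at 0.05. CPM are counts per 1000000 of the TMM-scaled library size (factors 0.952 to 0.960 in KO and 1.04 to 1.06 in WT). For a gene at 0 in a group, folds are bounds against a floor of 3 counts over that group (0.0174 CPM in KO, 0.0161 CPM in WT). Counts piled up at certain values: 931 to 1048 genes per library had exactly 4 counts and 511 to 554 had 3, and 465 to 535 had 8 and 230 to 281 had 7. One fragment may thus stand for several counts. The cause was not tested. Floors and intervals take counts as independent and cover no other error. If 1 fragment stands for several counts, the floor of 3 counts may be less than 1 fragment. Bounds and intervals are then too tight even for counting error. Replicates were not copies of each other (chi-square per degree of freedom 22.6 to 34.8 between pairs).

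Alternatives were RLE factors, total-count scaling, DESeq2 1.42.0, limma-voom (limma 3.58.1), other filters, limma on log2(FPKM + 0.1), an adjusted p of 0.01, a replicate block and leaving out each library. The family and the pathway and marker lists were chosen with earlier results of these data known. Library values are given for members with a call and a mean of at least 1 CPM in the higher group, for Axin2, Lef1, Tcf7, Nkd1 and Notum, and for some of the other pathway genes. Of these, up to 4 per role with the smallest adjusted p are named, most with group means and SD. Wnt16, Wnt8b, Rspo2, Fzd7, Fzd9, Wnt6, Wnt2b, Nkd2, Sp5 and the single markers are outside these rules and were picked with their values known.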

Additional observations from a re-analysis of the deposited data

How the results depend on the processing

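Over all alternatives 11026 to 13368 genes were called, against 12980 in the edgeR fit with TMM factors, with 19 to 23 Wnt members higher and 8 to 11 lower. Leaving out each library in turn gave 12364 to 12765 genes, 21 to 23 members higher and 10 to 11 lower, and 34 to 36 other pathway genes higher and 18 to 21 lower. Of the comparisons of single named genes with an alternative, 890 kept direction and side of the threshold, 9 lost the call, 8 gained it and none reversed. Calls were lost for Fzd5, Lrp5 and Wnt10b from the FPKM (limma adjusted p = 0.0529, 0.212 and 0.0587), for Ryk with total counts (edgeR adjusted p = 0.0753), for Ryk and Wnt10b at a threshold of 0.01, and for Wnt10b without each of 3 libraries. Calls were gained for Fzd7 in 3 alternatives and for Wnt6 in 5. Scaling by total counts moved the median log2 fold change of all tested genes by over 0.1, to -0.0992, against 0.0313 with TMM, and gave 21 members higher and 11 lower. The replicate numbers gave no sign of pairing. Deviations of same-numbered libraries correlated at -0.0237, 0.0180 and -0.00904, and 2 of 6 libraries correlated best with their own number. Such values cannot tell whether same-numbered libraries shared a batch or culture. With replicate as a block, 12233 genes were called, 22 members were higher and 10 lower, and 34 other pathway genes were higher and 19 lower. Depth limits the 9 untested members that have a count, Axin2 among them.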

Other observations

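In the reference annotation, 4 pairs of Wnt genes are neighbours with no gene between them: Wnt6 and Wnt10a on chromosome 1, Wnt3a with Wnt9a and Wnt9b with Wnt3 on chromosome 11, and Wnt10b and Wnt1 on chromosome 15. Of the first pair, Wnt10a was higher in KO and Wnt6 did not pass the test. Of the second, Wnt9a was higher and Wnt3a had no count in any library. Wnt9b and Wnt3 had no counts. Wnt10b was higher in KO, and Wnt1 was too low to be tested, with 9, 4 and 12 counts in KO libraries and 8, 0 and 20 in WT libraries. Among other genes with counts in 1 genotype, Wnt11 had 20 counts over the KO libraries and 0 in WT, Wnt7b 13 in KO and 0 in WT, and Rspo1 0 in KO and 23 in WT, none of them tested. Of all 18732 tested genes, 429 (2.29%) had 0 counts in every WT library, as 7 of the 36 tested Wnt members did. Genes at 0 in WT passed the low-count filter only through KO. These counts therefore describe the tested genes only and are no test of the family.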
